A study of Arabidopsis thaliana with 6 samples.

Results

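The 9 genes described here belong to a pair of pathways that shape the endosperm, the nourishing tissue of the seed, in Arabidopsis thaliana. They were chosen by locus from a table of 27779 gene rows. The HAIKU arm holds IKU1 (AT2G35230), IKU2 (AT3G19700), MINI3 (AT1G55600) and SHB1 (AT4G25350). The ZOU arm holds ZOU (AT1G49770), ICE1 (AT3G26744), ALE1 (AT1G62340), GSO1 (AT4G20140) and GSO2 (AT5G44700). The table lists MINI3 as WRKY10, SHB1 as PHO1-H4, ZOU as BHLH95, ICE1 as SCRM and ALE1 as SBT2.4. All 9 loci carried the expected name in the table or in the RefSeq annotation.

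Transcripts were measured by RNA-seq in whole siliques, the fruits that enclose the seeds, collected 3 days after pollination. There were 3 libraries of the wild type, labelled WT and with columns headed Col in the table, and 3 libraries of the mutant agc1-4. The labels gave no other allele, no plant age and no treatment, and left unsaid whether separate plants were used for each library. P-values therefore reflect library-to-library spread that could be purely technical. Total counts ranged from 7973366 to 11812934 per library, and the floor that goes with a gene not counted at all was taken as 3 counts in a library, or 0.254 to 0.376 CPM (counts scaled to library size), covering counting error only. Neither the table nor the annotation names a locus AGC1-4. The protein kinase gene AT5G40030, taken as that locus from background knowledge, stood at 0.63 to 1.78 FPKM (fragment counts divided by gene length and by library depth) in WT and at 0.07 to 0.39 FPKM in agc1-4. It had 10, 39 and 16 counts in WT replicates 1 to 3 and 2, 7 and 1 in those of agc1-4. Replicates 1 and 3 of agc1-4 were thus under the floor of 3 counts, and WT replicate 2 was the highest.

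The endosperm first multiplies its nuclei without walls, then divides into cells, and is later consumed as the embryo grows. The HAIKU genes promote the early growth of endosperm and seed: loss of IKU1, IKU2 or MINI3 gives early cellularization and small seeds. IKU1 is a protein with a VQ motif, MINI3 is a WRKY transcription factor, IKU2 is a leucine-rich repeat receptor kinase, and SHB1 promotes the expression of MINI3 and IKU2. ZOU and ICE1 are basic helix-loop-helix proteins that act as a heterodimer in the endosperm, where they are needed for its breakdown and for a sealed embryo surface. ALE1 is a subtilisin-like protease of the endosperm whose expression depends on ZOU. It takes part in peptide signalling to GSO1 and GSO2, receptor kinases of the embryo that are needed for an intact embryonic cuticle.

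In agc1-4 siliques the transcripts of ZOU, its partner ICE1 and the protease ALE1 were higher than in WT, by 2.36-fold, 1.37-fold and 1.55-fold. No member was called lower, and neither receptor gene of the ZOU arm was called. In the HAIKU arm IKU1 and MINI3 were tested and not called, while SHB1 and IKU2 had too few counts for the test. Calls are adjusted p-values under 0.05 in edgeR's quasi-likelihood test with Benjamini-Hochberg adjustment over all 18828 genes tested, and fold changes are agc1-4 over WT. Of the 9 members 7 passed the filter on low counts and 3 were called higher, beside 13.6% of all tested genes called in either direction, 6.55% called higher and 7.07% called lower. The members, and the lists of other genes set beside them below, were chosen with earlier results of these data known. Counts of calls among them are therefore descriptions, not independent evidence. In a bulk sample of the whole fruit, more cells of a type and more RNA per cell cannot be told apart.

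**Figure D1:**
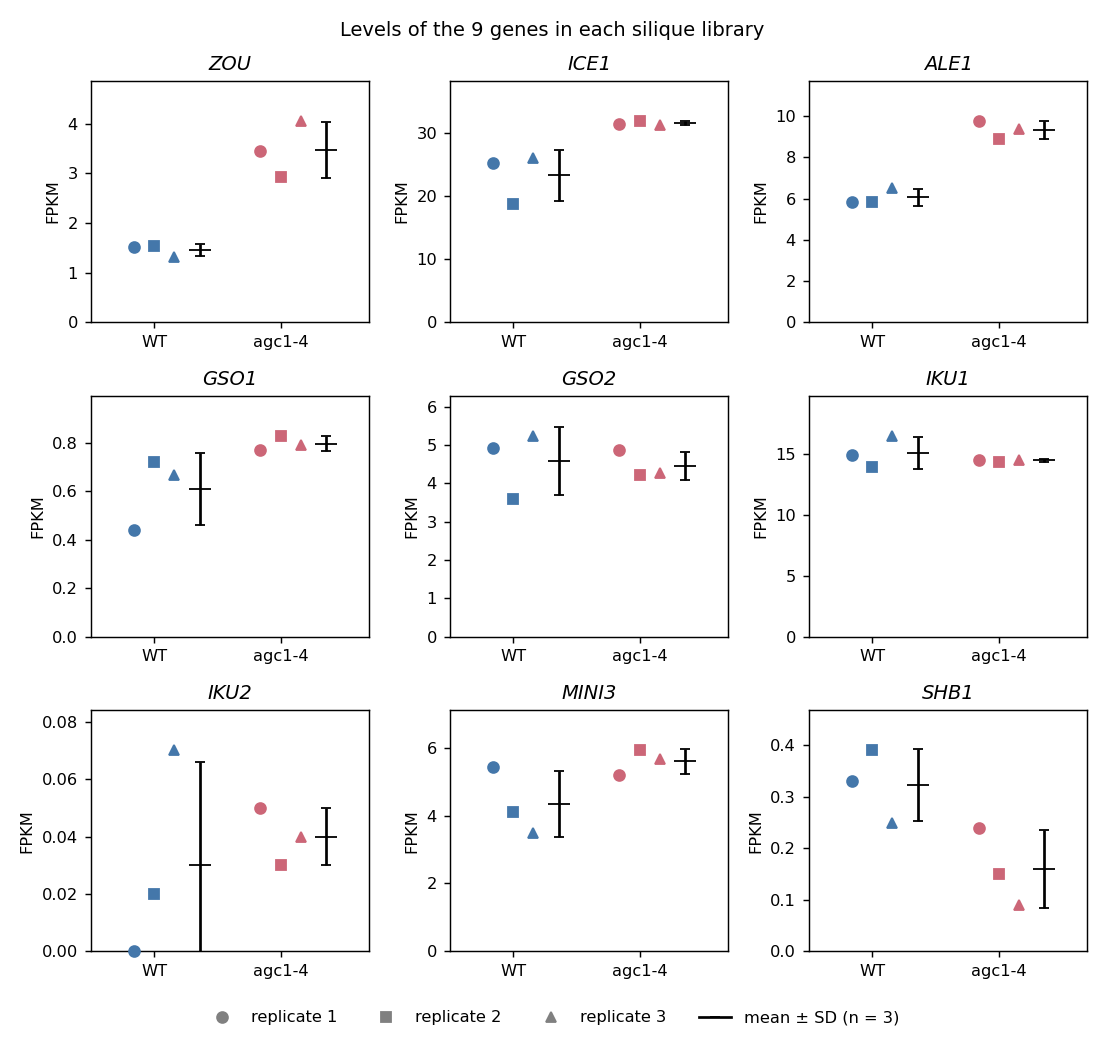
FPKM of the 9 genes (vertical axes, linear from 0 and scaled per gene) in the 3 WT and 3 agc1-4 libraries. Symbols are replicates, and bars are the mean ± SD (n = 3), cut off at 0 for IKU2. ZOU, ICE1 and ALE1 lie higher in every agc1-4 library than in any WT library, while IKU1, MINI3 and GSO2 overlap between genotypes.

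ZOU had 1.51, 1.53 and 1.31 FPKM in WT replicates 1 to 3 and 3.45, 2.92 and 4.05 FPKM in agc1-4 replicates 1 to 3. The genotypes did not overlap, and the lowest agc1-4 library stood above the highest WT library. The mean was 1.45 ± 0.122 FPKM in WT and 3.47 ± 0.565 FPKM in agc1-4 (SD, n = 3), a log2 fold change of 1.24 ± 0.28 (SE, 95% interval 0.66 to 1.82, edgeR adjusted p = 0.00277). The WT libraries held 15, 21 and 13 counts of ZOU, and the agc1-4 libraries held 48, 33 and 38. A larger log2 fold change was seen for 0.866% of tested genes. ZOU was a weakly expressed gene, with a mean FPKM above that of 12.4% of tested genes.

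ICE1, which besides its part in the seed acts in cold response and in the formation of stomata, was the most abundant of the 9. Its levels were 25.13, 18.64 and 26.02 FPKM in WT and 31.32, 31.81 and 31.22 FPKM in agc1-4. The agc1-4 libraries lay close together and above all of WT, of which replicate 2 was the lowest. The mean rose from 23.3 ± 4.03 to 31.4 ± 0.316 FPKM (SD, n = 3), a log2 fold change of 0.45 ± 0.09 (95% interval 0.26 to 0.65, edgeR adjusted p = 0.00241). Without WT replicate 2 the log2 fold change was 0.30 (adjusted p = 0.00347).

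ALE1 had 5.83, 5.82 and 6.53 FPKM in WT and 9.76, 8.9 and 9.37 FPKM in agc1-4. Both genotypes were tight, and they were well apart. The mean rose from 6.06 ± 0.407 to 9.34 ± 0.431 FPKM (SD, n = 3), a log2 fold change of 0.63 ± 0.11 (95% interval 0.41 to 0.85, edgeR adjusted p = 0.00014). It had the lowest adjusted p among the members, with 130 to 179 counts per WT library and 197 to 304 per agc1-4 library.

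Of the receptor genes, GSO2 was the more abundant. GSO2 had 4.92, 3.59 and 5.24 FPKM in WT and 4.86, 4.22 and 4.27 FPKM in agc1-4. The agc1-4 libraries fell inside the WT range. Its log2 fold change was -0.02 ± 0.13, with a 95% interval of -0.28 to 0.24 (edgeR adjusted p = 0.951).

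GSO1 had 0.44, 0.72 and 0.67 FPKM in WT and 0.77, 0.83 and 0.79 FPKM in agc1-4. Every agc1-4 library stood above every WT library, but the margin between 0.72 and 0.77 FPKM was small and the counts were few, at 16 to 36 per WT library. The log2 fold change of 0.37 ± 0.27 did not pass the test (95% interval -0.18 to 0.91, edgeR adjusted p = 0.419). The interval reaches from a small decrease to an increase of 1.89-fold, so a change of the size seen for ALE1 lies within it. The gene overlaps AT4G20150 in the RefSeq annotation, and the counting of strands is not given in the sources used here, so reads from the overlap cannot be told apart. Over the tested members, FPKM was higher without overlap for ZOU, ICE1, ALE1 and GSO1, beside 14.5% of all tested genes that were higher and 15.0% that were lower without overlap.

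In the HAIKU arm, IKU1 was the most abundant gene. It had 14.94, 13.93 and 16.53 FPKM in WT and 14.58, 14.38 and 14.54 FPKM in agc1-4. The agc1-4 values lay within the WT range. The log2 fold change was -0.14 ± 0.09 (95% interval -0.33 to 0.05, edgeR adjusted p = 0.37), and with 237 to 359 counts per library this interval leaves room for a change of at most 1.25-fold downwards.

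MINI3 had 5.42, 4.11 and 3.49 FPKM in WT and 5.21, 5.92 and 5.66 FPKM in agc1-4. The genotypes overlapped through WT replicate 1, which stood above agc1-4 replicate 1. The mean was 4.34 ± 0.985 FPKM in WT and 5.60 ± 0.359 FPKM in agc1-4 (SD, n = 3). The log2 fold change of 0.37 ± 0.18 was not called (95% interval -0.01 to 0.74, edgeR adjusted p = 0.198). Without WT replicate 1 it was 0.55 (adjusted p = 0.0784).

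SHB1 was near the limit of detection, counted 8, 13 and 6 times in the WT libraries and 8, 4 and 2 times in those of agc1-4. In FPKM these were 0.33, 0.39 and 0.25 in WT and 0.24, 0.15 and 0.09 in agc1-4. The values are lower in agc1-4 without overlap, but agc1-4 replicate 1 lies just below WT replicate 3. SHB1 was removed by the low-count filter. Fitted without that filter its log2 fold change was -0.97 ± 0.61, with a 95% interval of -2.17 to 0.22 (edgeR adjusted p = 0.348).

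IKU2, the receptor kinase of the HAIKU arm, had 0, 1 and 2.03 estimated counts in WT and 2.05, 1.02 and 1.03 in agc1-4. Every library was at or below the floor of 3 counts, so no fold is given and a difference was not detectable at this depth. MINI3, a transcription factor that is known to act on IKU2, was counted 43 to 90 times in the same libraries. IKU2 overlaps BCAT4 in the RefSeq annotation.

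The order of the mean levels in WT was ICE1 (23.3 FPKM), IKU1 (15.1), ALE1 (6.06), GSO2 (4.58), MINI3 (4.34), ZOU (1.45), GSO1 (0.61), SHB1 (0.323) and IKU2 (0.03). Neighbours in this order did not overlap in any WT library, except GSO2 and MINI3. In agc1-4 the order was the same but for MINI3 (5.60 FPKM), which stood above GSO2 (4.45) without overlap. Among tested members the coefficient of variation of FPKM in WT ran from 6.72% for ALE1 to 24.5% for GSO1, and in agc1-4 from 0.730% for IKU1 to 16.3% for ZOU.

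The ratio of members within a library does not depend on how libraries are scaled. ZOU stood to ICE1, its partner, as 0.0601, 0.0821 and 0.0503 in WT and as 0.110, 0.0918 and 0.130 in agc1-4. The ratio was higher in each agc1-4 library, with a mean of 0.0642 ± 0.0163 against 0.111 ± 0.0190 (SD, n = 3), and in both genotypes ICE1 was the far more abundant transcript. In whole siliques ICE1 transcripts may also come from tissues other than endosperm. The ratio is therefore not that of the partners within the endosperm. The ratio of ALE1 to ZOU was 3.86, 3.80 and 4.98 in WT and 2.83, 3.05 and 2.31 in agc1-4. ALE1 thus exceeded ZOU in every library, and by less in each agc1-4 library. The ratio of GSO1 to GSO2 overlapped between genotypes, at 0.0894 to 0.201 in WT and 0.158 to 0.197 in agc1-4. These ratios are described and were not tested.

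**Figure D2:**
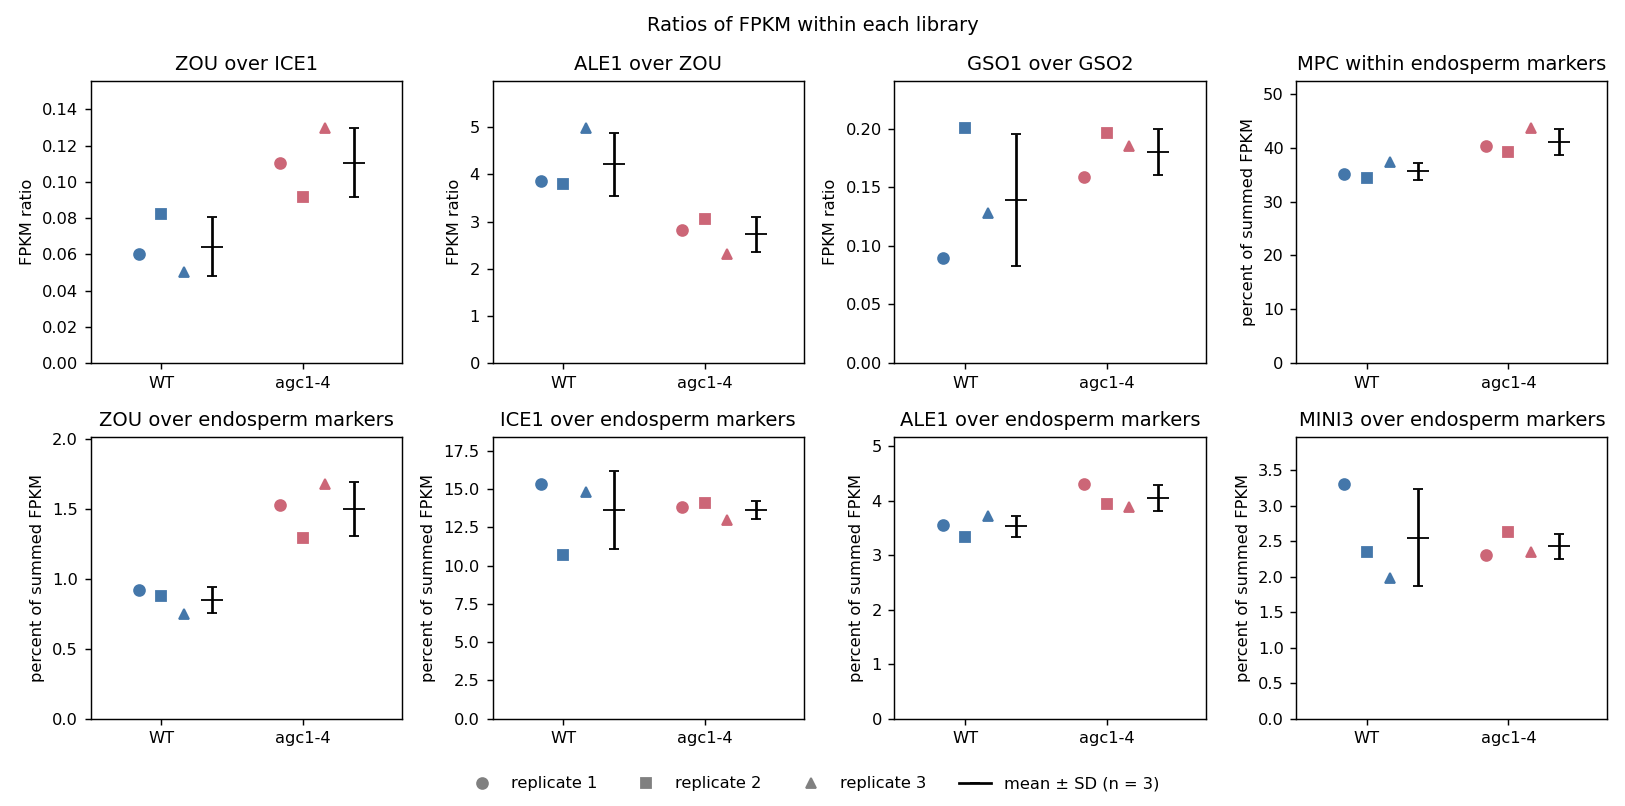
FPKM ratios within each library for 3 pairs of members, and MPC, ZOU, ICE1, ALE1 and MINI3 as a percent of the summed FPKM of 15 endosperm markers, of which MPC is one. Symbols are replicates, and bars are the mean ± SD (n = 3). ZOU over ICE1 and ZOU over endosperm markers lie higher in all agc1-4 libraries, ALE1 over ZOU lies lower, and GSO1 over GSO2 and ICE1 and MINI3 over endosperm markers overlap.

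The summed markers of endosperm and of embryo were also higher in agc1-4, without overlap between genotypes. Taken singly, most tested embryo markers were called higher, while most endosperm markers were not called. The summed FPKM of 15 endosperm markers was 163.7 to 175.7 in WT and 225.6 to 241.1 in agc1-4, and 0 of the 15 were at 0 in every library. Of these 15, all of them tested, 4 rose and 0 fell, beside the 6.55% and 7.07% of all tested genes called higher and lower, with a median log2 fold change of 0.31 against 0.00 over all tested genes. This list, like the others, was chosen with earlier results of these data known, so its counts are descriptions. MPC, a maternally expressed imprinted gene, had the highest level and went from 57.63, 60.11 and 65.65 FPKM in WT to 91.28, 88.34 and 105.33 FPKM in agc1-4 (log2 fold change 0.63 ± 0.08, edgeR adjusted p = 3.82e-06). The F-box gene SDC rose 2.32-fold, the homeobox gene FWA 1.31-fold and the MADS-box gene PHE2 1.60-fold (adjusted p = 2.45e-09, 0.000223 and 0.0092). The PHE2 call was lost in DESeq2 and without agc1-4 replicate 1 (adjusted p = 0.058 and 0.0751). PHE2 has a close paralog, PHE1, whose log2 fold change was 0.03 (edgeR adjusted p = 0.916). Whether reads were divided between them was not tested. Their estimated counts were whole numbers in every library, while those of SDC were not whole in any, and how reads were assigned is not given. AGL23, YUC10, FIS2 and EDE1 were not called but lay above 0, at 0.55, 0.46, 0.44 and 0.31 on the log2 scale (edgeR adjusted p = 0.0867 to 0.569). AGL28, AGL36 and FH5 stood at 0.03, 0.07 and -0.03 on the log2 scale and AGL80 at -0.49 (adjusted p = 0.332 to 0.932). AGL62, a MADS-box repressor of endosperm cellularization, and the polycomb gene MEA had log2 fold changes of -0.11 and -0.36 (adjusted p = 0.615 and 0.172).

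The members were also set against the summed endosperm markers. The sum is uneven, since MPC made up 34.4% to 37.4% of it in WT and 39.1% to 43.7% in agc1-4 and its markers ran from -0.49 to 1.21 in log2 fold change, so it is not a measure of the amount of endosperm. The FPKM of ZOU was 0.922%, 0.876% and 0.745% of their sum in WT and 1.53%, 1.29% and 1.68% in agc1-4. No WT library reached the lowest agc1-4 library, and the ratio of the means was 1.77. ICE1, whose share was added after the values were seen, stood at 15.3%, 10.7% and 14.8% of the sum in WT and at 13.9%, 14.1% and 13.0% in agc1-4. Its genotypes overlapped, with means of 13.6% ± 2.56 and 13.6% ± 0.603 (SD, n = 3), and its transcripts may come from other tissues too. For ALE1 the share was 3.56%, 3.33% and 3.72% in WT and 4.32%, 3.94% and 3.89% in agc1-4, also without overlap but only 1.15 times higher. For MINI3 the share overlapped, at 1.99% to 3.31% in WT and 2.30% to 2.62% in agc1-4. The part that the amount of endosperm plays in the change of ZOU, ICE1 and ALE1 was not tested. SDC, one of the markers in the sum, rose 2.32-fold, against 2.36-fold for ZOU. It had the largest rise of the 15 markers, with PHE2 next at 1.60-fold, while AGL62, MEA, AGL80 and FH5 lay below 0 on the log2 scale.

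The 7 embryo markers summed to 5.25 to 7.17 FPKM in WT and 15.86 to 16.41 FPKM in agc1-4, and 0 were at 0 in every library. This sum is uneven too. LEC1 made up the largest part of it in agc1-4, with a mean of 9.69 ± 0.701 FPKM against 2.11 ± 0.908 FPKM in WT (SD, n = 3). Of the 4 that could be tested 3 rose and 0 fell, beside 6.55% and 7.07% of all tested genes, and the median log2 fold change was 1.65. LEC1 and WOX8 rose by 4.81-fold and 2.47-fold (edgeR adjusted p = 1.45e-07 and 0.00838). LEC2 was also called higher (adjusted p = 0.00526), with 5, 3 and 3 counts in the WT libraries against 17, 16 and 13 in those of agc1-4. With WT replicates 2 and 3 at the floor of 3 counts the size of its change is poorly known, and the 95% interval of its fold ran from 1.99 to 7.87. These are transcription factor genes of the young embryo. WOX9 was not called, at -0.20 on the log2 scale (adjusted p = 0.685), and WOX2 and DRN were counted at most 3 times in any library. FUS3 was not tested, with 3, 9 and 4 counts in the WT libraries and 10, 9 and 9 in those of agc1-4. Its FPKM was higher in agc1-4 without overlap, at 0.22, 0.48 and 0.3 in WT and 0.53, 0.59 and 0.7 in agc1-4. The WOX8 call was lost in DESeq2 (adjusted p = 0.0566). The part of embryo or seed stage in the levels of the 9 genes was not tested.

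Of the markers of tissues around the seed a few were called. For the 8 seed coat markers 2 rose and 0 fell, beside 6.55% and 7.07% of all tested genes (median log2 fold change 0.12), with summed FPKM of 617.3 to 830.2 in WT and 710.7 to 793.2 in agc1-4. The tannin regulator gene TT8 rose 1.21-fold (edgeR adjusted p = 0.00262), and the laccase gene TT10 rose 1.38-fold (adjusted p = 0.0189), a call that DESeq2 did not make and that needed WT replicate 2 as well as replicates 1 and 2 of agc1-4 (0.0539 to 0.0995 otherwise). The seed coat markers not called ran from -0.31 for TT16 to 0.22 for TT2 on the log2 scale (edgeR adjusted p = 0.0753 and 0.0704). For the 6 fruit wall markers, against the same background, 0 rose and 2 fell (median 0.03), with sums of 446.7 to 473.8 and 460.9 to 503.3 FPKM. RPL, a homeobox gene of the replum, fell 1.33-fold (adjusted p = 0.000352), and FUL, a MADS-box gene of the valves, fell 1.18-fold (adjusted p = 0.0411). The FUL call was lost in DESeq2, in limma at either pseudocount, and when replicate 1 or 2 of WT, or else replicate 2 or 3 of agc1-4, was dropped (adjusted p = 0.0696 to 0.294). The fruit wall markers not called lay above 0, from 0.01 for IND to 0.16 for SHP1 on the log2 scale (edgeR adjusted p = 0.99 and 0.0543). Of 5 pollen markers 4 were tested and, against the same background, 0 were called (median 0.21, sums of 113.4 to 151.6 and 139.0 to 169.9 FPKM). VGD1, at 0.38 on the log2 scale (adjusted p = 0.0777), and AGP6, with 0.20 (adjusted p = 0.243), had the lowest p among them.

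**Figure D3:**
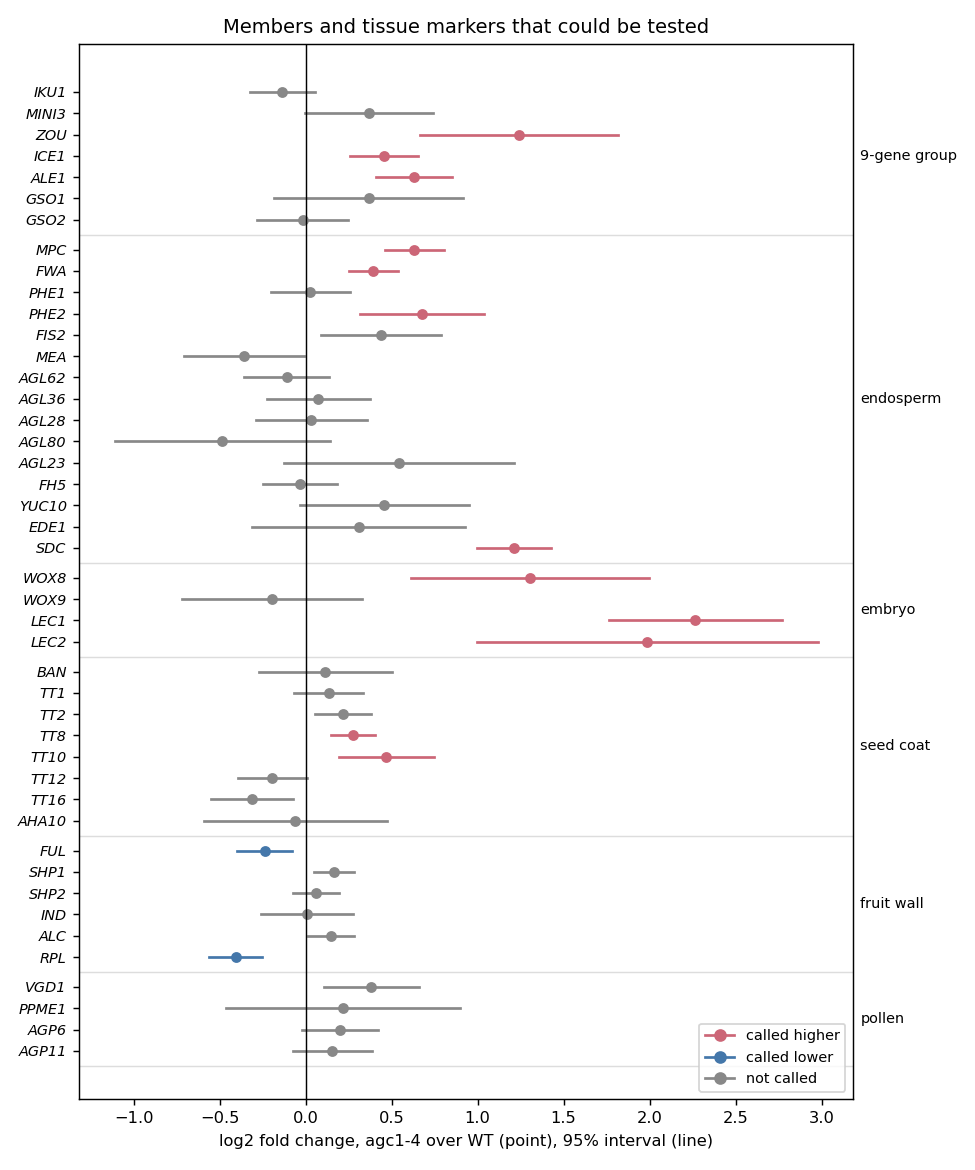
Log2 fold change, agc1-4 over WT (horizontal axis), with its 95% interval for the tested members and the tested markers of 5 tissues. Colours give calls at an adjusted p under 0.05 in edgeR. ZOU, at 1.24, lies near SDC and WOX8, and most other endosperm markers are not called.

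Genes tied to the HAIKU arm went both ways. Of 6 tested, 1 rose and 1 fell, beside 6.55% and 7.07% of all tested genes, with a median log2 fold change of -0.02. CKX2, a cytokinin-degrading enzyme gene whose expression depends on the HAIKU pathway, had 44.88, 41.04 and 39.35 FPKM in WT and 69.72, 67.01 and 66.96 FPKM in agc1-4. Its genotypes were far apart, with a log2 fold change of 0.70 ± 0.07 (edgeR adjusted p = 1.01e-08). In the same libraries IKU1 and MINI3 were not called and IKU2 was at the limit of detection. The 95% interval of MINI3, -0.01 to 0.74, includes the log2 fold change of CKX2, so a difference between CKX2 and MINI3 is not shown.

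RAV1, a transcription factor reported to repress MINI3 and IKU2, had 4.79, 6.85 and 4.34 FPKM in WT and 3.33, 3.41 and 3.62 FPKM in agc1-4. All agc1-4 libraries were below WT, where replicate 2 stood highest. The log2 fold change was -0.65 ± 0.18 (edgeR adjusted p = 0.0145), but -0.41 without WT replicate 2 (adjusted p = 0.185), and RAV1 was likewise not called by DESeq2, by limma or when agc1-4 replicate 1 or 2 was left out (adjusted p = 0.0594 to 0.0806). BZR1, a brassinosteroid transcription factor, and ABI5, an abscisic acid transcription factor, had log2 fold changes of -0.21 and -0.08 (adjusted p = 0.224 and 0.768). The maternal seed size regulators AP2 and TTG2 had 0.05 and 0.17 (adjusted p = 0.713 and 0.11).

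Of the genes of peptide signalling around ALE1, GSO1 and GSO2, MPK3 fell. Of 11 genes 9 were tested, of which 0 rose and 1 fell, a share near the 13.6% called in either direction over all tested genes, with a median log2 fold change of -0.06. TWS1, the peptide precursor that ALE1 is known to process, was not analysed here. The one that fell was MPK3, a mitogen-activated protein kinase gene, from 16.99, 18.09 and 18.9 FPKM to 13.67, 12.52 and 12.35 FPKM. Its genotypes did not overlap, and the log2 fold change was -0.48 ± 0.09 (edgeR adjusted p = 0.000497). MPK6, which acts with MPK3, stood at 0.11 on the log2 scale (adjusted p = 0.366), and the kinase genes upstream of both, MKK4 and MKK5, had 0.04 and -0.11 (adjusted p = 0.84 and 0.484).

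The co-receptor genes SERK1, SERK2 and BAK1 had log2 fold changes of -0.03, -0.08 and -0.10 (edgeR adjusted p = 0.503 to 0.882). TPST, the enzyme that adds sulphate to tyrosines of peptide hormones, had a log2 difference of 0.00 (adjusted p = 0.988). KRS, a cysteine-rich protein gene that depends on ZOU in the endosperm, was counted 0, 0 and 3 times in the WT libraries and 1, 0 and 0 times in those of agc1-4, at or below the floor. It could therefore not be set beside ALE1. Of the root ligands of GSO1, CIF1 had at most 3 counts in any library, and CIF2 was not called, at -0.06 ± 0.31 on the log2 scale (adjusted p = 0.929).

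Genes tied to ICE1 in its other roles were not called. Of 11 genes 5 were tested, with a median log2 fold change of -0.07. In edgeR 0 rose and 0 fell, beside 6.55% and 7.07% of all tested genes, and DESeq2 also called 0. A count of 0 among 5 is near these shares. The 3 genes with an unadjusted edgeR p under 0.05 were ICE2, FAMA and HOS1, and the same share over all tested genes is not given here. ICE2, the closest relative of ICE1, had 16.17, 17.92 and 17 FPKM in WT and 13.91, 15.42 and 14.23 FPKM in agc1-4. It was lower in agc1-4 without overlap, where ICE1 was higher, but its log2 fold change of -0.23 ± 0.09 was not called (edgeR adjusted p = 0.0793). HOS1 was higher in agc1-4 without overlap and not called, at 0.18 ± 0.08 on the log2 scale (adjusted p = 0.151). FAMA, a stomatal partner of ICE1, stood at -0.36 ± 0.12 on the log2 scale (adjusted p = 0.051). The other stomatal partners, SPCH and MUTE, had at most 3 counts in any library, and the stomatal genes TMM and SDD1 at most 5. CBF3, a cold-response target of ICE1, had 6 to 13 counts per library and was not tested.

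Of the genes of the embryo epidermis and cuticle, PDF1, ALE2 and PDF2 fell. Of 9 tested, 0 rose and 3 fell, beside 6.55% and 7.07% of all tested genes, with a median log2 fold change of -0.03. PDF1, a marker gene of the outer cell layer, went from 75.87, 78.57 and 74.79 FPKM in WT to 57.79, 59.27 and 63.02 FPKM in agc1-4. The gap between genotypes was wider than either range, and the log2 fold change was -0.35 ± 0.06 (edgeR adjusted p = 0.000214). ALE2, a receptor-like kinase gene of epidermis formation, fell 1.24-fold (adjusted p = 0.00442). PDF2, a homeobox gene of the outer layer, fell 1.14-fold (adjusted p = 0.0354), but lost its call by DESeq2, by limma and whenever WT replicate 1 or any agc1-4 library was left out (adjusted p = 0.0774 to 0.203). The genes not called lay on both sides of 0. BDG1, ATML1 and LCR stood at 0.12, 0.08 and 0.05 on the log2 scale (edgeR adjusted p = 0.223 to 0.65). ACR4, FDH and LACS2 stood at -0.03, -0.03 and -0.15 (adjusted p = 0.0762 to 0.831). The genes of this list are also expressed in the epidermis of the fruit, so the values are not those of the embryo alone.

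**Figure D4:**
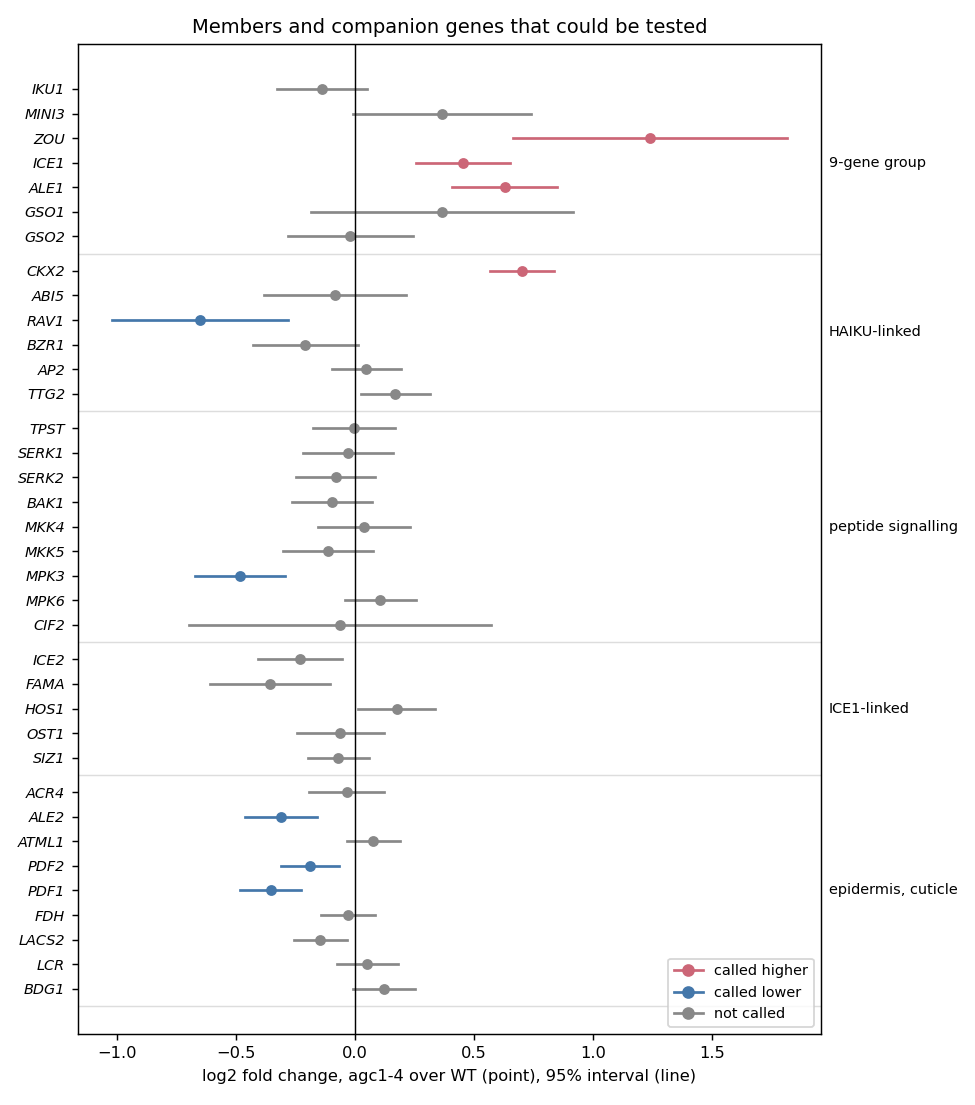
Log2 fold change, agc1-4 over WT (horizontal axis), with its 95% interval for the tested members and for tested genes of 4 companion lists. Colours give calls at an adjusted p under 0.05 in edgeR. ZOU, ICE1, ALE1 and CKX2 lie to the right of 0, RAV1, MPK3, ALE2, PDF1 and PDF2 to the left, and the receptor and co-receptor genes close to 0 or with intervals that span it.

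Profiles most like those of the 3 called members were sought among 18188 tested genes with a mean of at least 1 FPKM, by the root mean square difference of log2 CPM, each gene centred on its mean over the 6 libraries. The nearest to ZOU were the annexin gene ANNAT7, the endosperm marker SDC and AIL6, an AP2-type transcription factor gene, at differences of 0.0958, 0.122 and 0.122. A gene chosen for its likeness to a called member differs between genotypes by that choice, so its levels are a description. ANNAT7 stood at 15.9 ± 1.22 FPKM in WT and 34.9 ± 2.87 FPKM in agc1-4 (SD, n = 3), and AIL6 at 1.12 ± 0.247 and 2.53 ± 0.391 FPKM.

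The profiles nearest to ALE1 were those of AT5G46950, GSTF5 and AT4G15050, at 0.0383, 0.0429 and 0.0465. AT5G46950 was far more abundant than ALE1 and stood at 363.2 ± 26.4 FPKM in WT and 567.1 ± 17.4 FPKM in agc1-4. Nearest to ICE1 were GASA12, the metallothionein gene MT2A and AT5G58770, at 0.0341, 0.0433 and 0.0513, which share with it a low value in WT replicate 2. Within a difference of 0.1 there were 1 gene for ZOU, 53 for ALE1 and 85 for ICE1, so over 6 libraries the likeness to ALE1 and ICE1 is shared by many genes.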

How the data were processed

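Estimated counts, of which 4.32% to 4.86% per library were not whole, and FPKM were deposited by the authors in 1 table, per the file headers. Aligner, counter, build and strand are not given in the sources used here. For testing, estimated counts were rounded and tested with edgeR 4.0.16 in R 4.3.3 (TMM, filterByExpr, robust quasi-likelihood F-test, no covariates), adjusted over 18828 genes. Another 8951 rows were not tested. The SE is the log2 fold change divided by the square root of F, and the 95% interval uses its t quantile. Levels are the authors' FPKM, mean ± SD.

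The members and lists were chosen with earlier results of these data known. Of 80 companion genes in 9 lists, 78 had a matching symbol in the table or RefSeq (TAIR10.1) and 2, TWS1 and AGL40, were dropped because the locus listed for them does not carry that name there. Named were all members, AT5G40030, called list genes (in a list without calls, the 2 with the lowest p, plus genes named for their role after their values were seen), and 3 genes nearest in profile to each called member. Ratios with IKU2, its nearest profiles, promoter motifs and protein features had been planned. IKU2 had too few counts, and sequences were not used here because the build behind the values is not given. Alternatives were RLE size factors, no filter, DESeq2 1.42.0, limma 3.58.1 on log2(FPKM + 1) and log2(FPKM + 0.1) over genes with at least 1 FPKM in 3 or more libraries, a block for the replicate number, ratios of FPKM + 0.1 and each library left out. The share of ICE1 in the endosperm markers, and shares of their sum without MPC, were added after seeing the data.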

Additional observations from a re-analysis of the deposited data

How the results depend on the processing

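ZOU, ICE1 and ALE1 were called higher, and no other member was called, in each of 12 alternative fits. Their log2 fold changes were 0.86 to 1.35 for ZOU, 0.30 to 0.53 for ICE1 and 0.55 to 0.69 for ALE1, and their highest adjusted p were 0.0204, 0.0308 and 0.00562. IKU1 and MINI3 kept their sign (-0.20 to -0.05 and 0.25 to 0.55), as did GSO1 in the 10 fits that tested it (0.20 to 0.51), while GSO2 ran from -0.190 to 0.0926 over the fits without 1 library. SHB1 and IKU2 were fitted without the filter and in DESeq2, and in DESeq2 SHB1 stood at -1.01 on the log2 scale (adjusted p = 0.562). Depth limits both genes.

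Over all tested genes, 1233 were called higher and 1331 lower, against 784 and 802 in DESeq2. In limma 875 were lower with a pseudocount of 1 and 848 with 0.1. Without 1 library, 852 to 1438 were higher and 823 to 1378 lower. The 1 lower HAIKU-linked gene became 0 in DESeq2, in limma at either pseudocount, and in some fits without 1 library (0 to 1). Of ICE1-linked genes, 1 was lower without the filter and 1 with the replicate block, and 0 to 1 were higher and 0 to 1 lower without 1 library. Of seed coat markers 1 was higher in DESeq2, and without 1 library 1 to 4 were higher and 0 to 1 lower. Of fruit wall markers 1 was higher without the filter and 1 with the replicate block, 1 was lower in DESeq2 and 1 in limma at either pseudocount, and without 1 library 0 to 1 were higher and 1 to 2 lower. Of pollen markers 1 was higher in limma with a pseudocount of 1, 1 with the replicate block, and 0 to 2 without 1 library. The cause of these differences was not tested. Ratios of FPKM + 0.1 moved by less than 1 SD. With MPC left out of the endosperm sum, an alternative chosen after seeing the data, every share rises because the sum is smaller, and the ratio of the means, agc1-4 over WT, was 1.94 for ZOU, 1.25 for ALE1, 1.09 for ICE1 and 1.04 for MINI3, with ICE1 and MINI3 overlapping as before.

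Libraries with the same replicate number showed no sign of deviating together (correlations of -0.030, 0.0050 and 0.034 over 18828 genes). Libraries with different numbers had correlations of -0.035 to 0.033. The labels do not say whether libraries with the same number were handled together, and the correlations cannot settle this. With the replicate block ZOU had a log2 fold change of 1.23, ICE1 0.46 and ALE1 0.63, the 3 members called higher without it.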
